A study of Mus musculus with 4 samples.

Results

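The neurotrophin genes examined here are 3 receptor genes and a sorting receptor gene (Ntrk2, Ntrk3, Ngfr and Sort1) and 2 ligand genes (Bdnf and Ntf3). They were taken by symbol from the deposited count tables, where all 6 were found among 49997 gene rows. The tables describe total RNA of iMOP cells, an immortalized mouse line of multipotent otic progenitors (cells that can form inner ear cell types), labelled wild-type. The proliferating group (2 libraries) grew in DMEM/F12 with B27, carbenicillin and basic FGF at 20 ng/ml. The neuron group (2 libraries) consists of iMOP cells differentiated in Neurobasal medium with N21, L-glutamine and K03861, a CDK2 inhibitor, at 1 µM. The groups therefore differ in growth factor, antibiotic, basal medium, supplement and inhibitor at once, and the parts of these cannot be told apart. All libraries come from the same cell line. The titles call the libraries biological replicates but do not say whether they came from separate cultures, so p-values measure the spread between these libraries.

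Neurotrophins are secreted survival and growth factors that are made as longer precursors and cut to their mature form. Each mature ligand binds a Trk receptor tyrosine kinase (BDNF binds TrkB, the product of Ntrk2, and neurotrophin 3 binds TrkC, the product of Ntrk3), while the uncut precursors bind p75, the product of Ngfr, together with sortilin, the product of Sort1. In the inner ear, hair cells and supporting cells supply BDNF and neurotrophin 3, and the spiral and vestibular ganglion neurons that carry TrkB and TrkC depend on them. TrkB is also abundant in astrocytes, mostly as a form without the kinase.

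Because a gene count adds up all forms of a receptor, the coding ends of the kinase and the truncated forms are shown for the Trk genes. Ntrk2 lies on chromosome 13 (58806569 to 59133970, plus strand, GRCm38) and has 10 transcripts in GENCODE M21, 7 of them protein coding. The transcript Ntrk2-201 encodes the kinase receptor of 821 residues and Ntrk2-202 a form of 476 residues. Their coding sequences are identical over the first 1394 bases. Below, the last 30 shared bases are in lower case and the bases after the split in capitals.
Ntrk2-201: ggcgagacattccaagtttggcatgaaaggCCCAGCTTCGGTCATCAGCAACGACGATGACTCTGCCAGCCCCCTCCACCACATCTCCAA
Ntrk2-202: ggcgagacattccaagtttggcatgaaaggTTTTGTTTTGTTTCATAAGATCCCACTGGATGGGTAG
Ntrk2-202 ends after 37 bases of its own, whereas Ntrk2-201 goes on for 1072 bases. Ntrk3 lies on chromosome 7 (78175959 to 78738012, minus strand) and has 20 transcripts, 6 of them protein coding. Ntrk3-201 (825 residues, with the kinase) and Ntrk3-202 (612 residues) share their first 1585 coding bases.
Ntrk3-201: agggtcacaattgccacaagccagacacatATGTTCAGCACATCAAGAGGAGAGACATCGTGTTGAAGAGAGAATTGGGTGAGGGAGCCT
Ntrk3-202: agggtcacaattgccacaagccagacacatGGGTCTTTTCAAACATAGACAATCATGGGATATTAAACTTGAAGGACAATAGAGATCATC
Reads from either side of these splits enter the same gene row, so every Ntrk2 or Ntrk3 value below is a sum over kinase and truncated forms. The libraries were made with a stranded kit, but the use of strand in counting is not given in the sources used here. Over the whole gene span, GENCODE lists 3 overlapping antisense genes for Ntrk2, 2 for Ntrk3, and 1 each for Bdnf and Sort1. Whether they overlap the exons was not examined. If strand was ignored, their reads within counted stretches could not be told apart from those of the neurotrophin genes.

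The libraries held 7446361 to 14484011 counts, of which 53.3% to 76.1% fell on the 18S ribosomal RNA row, leaving 2595578 to 3850766 counts for all other genes. In what follows, pairs of values are those of replicates 1 and 2 in that order. The labelled cell types were checked against marker lists. Of 15 neuron markers, 13 passed the filter on low counts, 10 with a higher and 3 with a lower fitted level in neurons, and 2 of them (Elavl4 and Map2) were higher in both neuron libraries than in both proliferating libraries, as were 12.9% of all tested genes. Tubb3, the neuronal tubulin gene, had 233 and 1430 counts in proliferating cells against 342 and 1026 in neurons, and its groups overlapped. Nefm and Gap43 had 0 to 5 counts in any library. Of 8 otic progenitor markers, Sox2 had 216 to 402 counts in each library, while Pax2 and Pax8 were at 0 in all 4. Across all 12783 genes that passed the filter, edgeR's quasi-likelihood test called 0 genes higher and 0 lower in neurons at an adjusted p-value under 0.05, which is 0% of genes in each direction. Before adjustment, 117 genes were higher (0.915%) and 321 lower (2.51%) with a p-value under 0.05, and DESeq2 called 12 higher and 48 lower. No neurotrophin gene was called by the edgeR test with these settings.

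Ntrk2 had the largest fitted difference of the 3 neurotrophin genes that were tested, with a level 10.2-fold lower in neurons. It had 890 counts in proliferating replicate 1 and 241 in proliferating replicate 2, against 49 in neuron replicate 1 and 61 in neuron replicate 2. In CPM, the usual scaling of counts to library size (here TMM-adjusted), its level was 73.1 and 32.6 in the proliferating libraries, against 4.12 and 6.22 in the neuron libraries. Both proliferating libraries thus lay above both neuron libraries, and the proliferating libraries differed more from each other than the neuron libraries did. The same separation in this direction was seen for 14.5% of all tested genes. The mean for proliferating cells was 52.9 ± 28.6 CPM, and that for neurons 5.17 ± 1.48 CPM (SD, n = 2 each). The fitted log2 fold change was -3.36 (SE 0.60, 95% interval -4.76 to -1.95) (3.86-fold to 27.1-fold lower). Its unadjusted p-value of 0.00069 ranked 9 from the smallest of 12783 tested genes, and its log2 fold change ranked 62 from the lowest. Adjusted over all genes, the edgeR p-value came to 0.77 (0.12 with replicate number as a block). The call depended on the setting: the DESeq2 adjusted p-value was 6.89e-05, without the filter on low counts the edgeR adjusted p-value was 3.99e-05, without proliferating replicate 1 it was 0.035 (log2 fold change -2.69) and without proliferating replicate 2 it was 0.0060 (log2 fold change -3.82). In the replicate 1 pair the level was 17.7-fold lower in the neuron library (95% counting interval 13.3 to 24.2), and in the replicate 2 pair 5.25-fold lower (3.95 to 7.07). Intervals of this kind cover counting error only, since reads without molecular identifiers are not independent molecules. In bulk RNA, fewer cells with Ntrk2 and less Ntrk2 RNA per cell cannot be told apart.

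**Figure D1:**
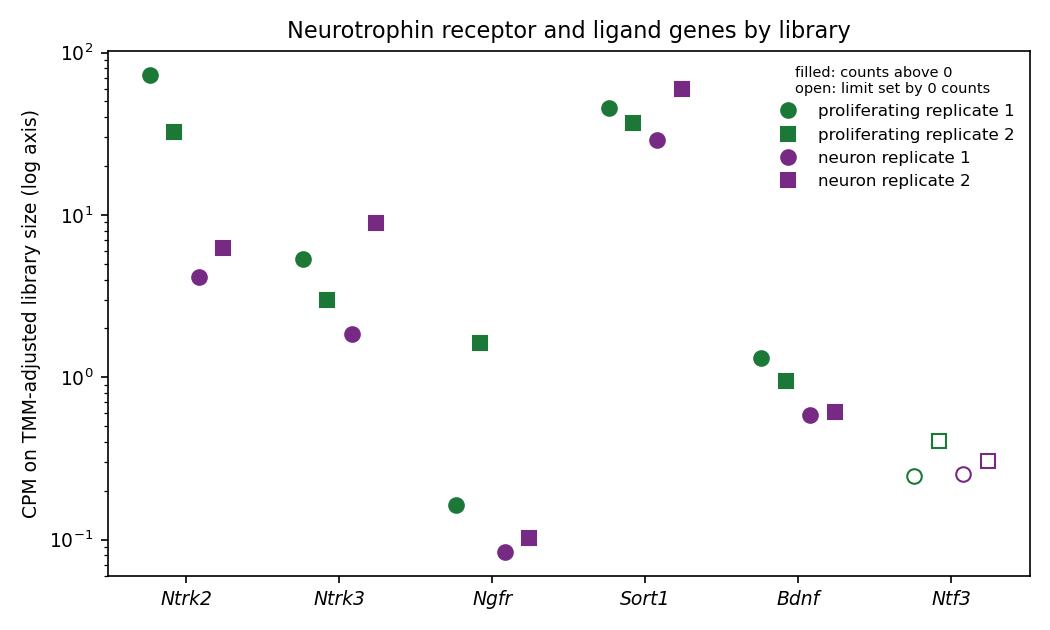
Level of each neurotrophin gene in each library, in CPM on the TMM-adjusted library size (log axis). Filled symbols are single libraries and open symbols stand at 3 counts, the limit used here for a count of 0. The Ntrk2 libraries separate by group (32.6 to 73.1 CPM against 4.12 to 6.22 CPM), those of Ntrk3 and Sort1 do not, and Ntf3 is at 0 in all 4.

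Ntrk3 showed no common direction. Its counts were 65 and 22 in the proliferating libraries, against 22 and 87 in the neuron libraries. In CPM these were 5.34 and 2.98 against 1.85 and 8.87, so that the neuron libraries held both the lowest and the highest value. The group levels of 4.16 ± 1.67 CPM and 5.36 ± 4.96 CPM (SD, n = 2 each) differed by less than the spread between replicates. The log2 fold change was 0.35 (SE 0.77, 95% interval -1.46 to 2.15), with an edgeR adjusted p-value of 0.9998. It changed sign with the library left out, from -1.17 without neuron replicate 2 to 1.04 without neuron replicate 1, and was -0.37 with library size as the only scaling. Within the pairs the neuron library was 2.89-fold lower in replicate 1 (95% counting interval 1.76 to 4.92) and 2.98-fold higher in replicate 2 (1.85 to 4.99). Both pair differences exceeded counting error, in opposite directions.

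Ngfr, the gene of the p75 receptor, was barely detected. It lies on chromosome 11 (95568818 to 95587735, minus strand) and has 1 transcript. The proliferating libraries had 2 and 12 counts, the neuron libraries 1 count each. Of the 4 libraries, only proliferating replicate 2, at 1.62 CPM (exact Poisson 95% interval 0.839 to 2.84), had more than 3 counts. Ngfr did not pass the filter on low counts and has no p-value from the main test. Summed over libraries, its level was 7.77-fold higher in proliferating cells, with a wide counting interval of 1.78 to 70.4. Without proliferating replicate 2 the ratio was 1.78, so the difference rested on that library.

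Sort1, which encodes the sorting receptor sortilin, was the most evenly expressed of the tested neurotrophin genes. Its gene lies on chromosome 3 (108284082 to 108361511, plus strand) and has 3 transcripts. It had 554 and 273 counts in the proliferating libraries, against 344 and 584 in the neuron libraries, or 45.5 and 37.0 CPM against 28.9 and 59.5 CPM. The neuron libraries enclosed the proliferating libraries. The log2 fold change was 0.10 (SE 0.51, 95% interval -1.10 to 1.30) with an edgeR adjusted p-value of 0.9998. Its sign turned with the scaling (-0.40 with library size as the only scaling) and with the library left out (-0.51 without neuron replicate 2, 0.49 without neuron replicate 1). Like Ntrk3, Sort1 went opposite ways in the pairs: the neuron library was 1.57-fold lower in replicate 1 (95% counting interval 1.37 to 1.80) and 1.61-fold higher in replicate 2 (1.39 to 1.87).

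**Figure D2:**
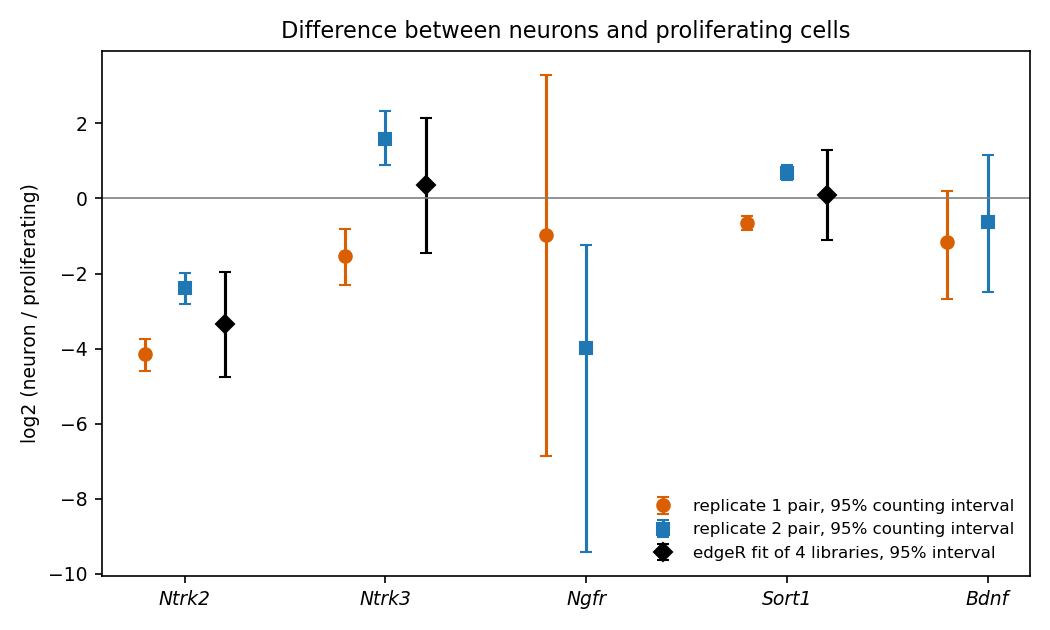
Difference between neurons and proliferating cells on the log2 scale for the replicate 1 pair (circles) and the replicate 2 pair (squares), with 95% counting intervals, and for the edgeR fit of all 4 libraries (diamonds) where a gene was tested. Ntrk2 lies below 0 in both pairs, whereas Ntrk3 and Sort1 lie below 0 in replicate 1 and above 0 in replicate 2.

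The ligand genes were at the edge of detection in both groups. Bdnf lies on chromosome 2 (109674700 to 109727007, plus strand) and has 11 transcripts in GENCODE, all protein coding, 9 of which encode the same length of 249 residues. It had 16 and 7 counts in the proliferating libraries, against 7 and 6 in the neuron libraries. These are 1.31 and 0.948 CPM against 0.589 and 0.612 CPM. The groups did not overlap, and 14.5% of all tested genes were separated in this direction. The exact Poisson 95% intervals of proliferating replicate 2 (0.381 to 1.95 CPM) and neuron replicate 1 (0.237 to 1.21 CPM) overlapped. Bdnf did not pass the filter on low counts. Its summed level was 1.96-fold higher in proliferating cells, but the counting interval of 0.953 to 4.22 included no difference. With library size as the only scaling the ratio was 2.38 and its interval of 1.16 to 5.11 did not. Ntf3, the gene of neurotrophin 3, lies on chromosome 6 (126101412 to 126166910, minus strand) and had 0 counts in all 4 libraries, for which the limit of 3 counts is 0.246 to 0.406 CPM and the upper bound of the exact Poisson 95% interval 0.303 to 0.499 CPM. Ntf5, the gene of another ligand of TrkB, had 1 count over all libraries.

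Ratios of receptor genes within a library do not depend on the scaling between libraries. In proliferating replicates 1 and 2 there were 13.7 and 10.95 Ntrk2 counts for each Ntrk3 count (95% counting intervals 10.6 to 17.9 and 7.07 to 17.8). In neuron replicates 1 and 2 the ratio was 2.23 (1.32 to 3.87) and 0.701 (0.497 to 0.984). The intervals of the proliferating libraries overlapped, those of the neuron libraries did not, and neither neuron interval reached those of the proliferating libraries. Against Sort1 the ratio of Ntrk2 was 1.61 and 0.883 in proliferating cells and 0.142 and 0.104 in neurons. The ratio of Ntrk3 to Sort1 overlapped between groups, with 0.117 and 0.0806 in proliferating cells and 0.0640 and 0.149 in neurons. The ratios were not tested between groups, and an exact permutation of 2 libraries against 2 cannot give a two-sided p under 0.333.

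**Figure D3:**
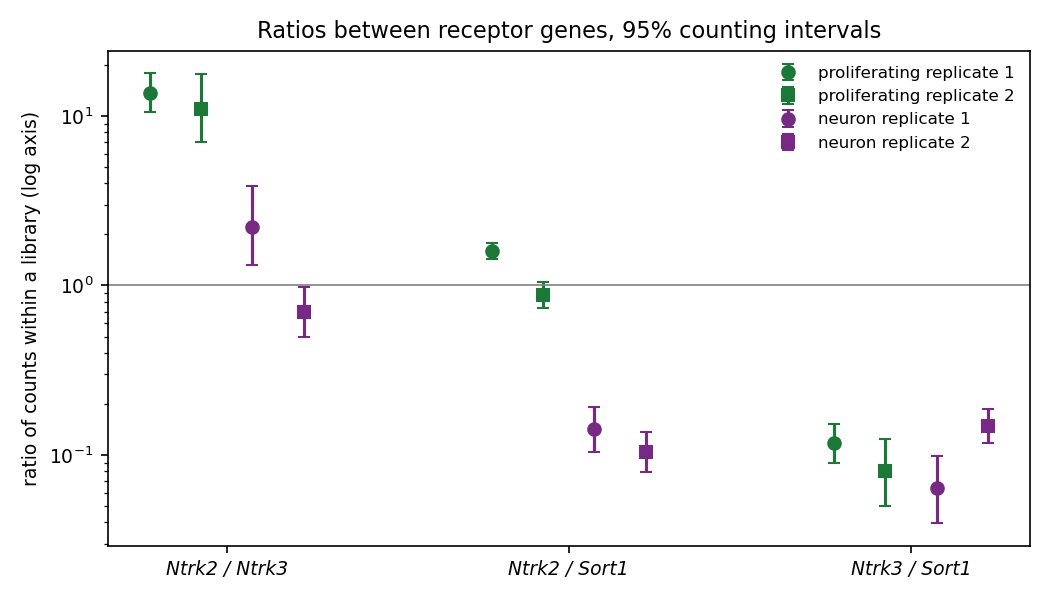
Ratio of counts between receptor genes within each library (log axis), with 95% counting intervals as bars. Both ratios with Ntrk2 are lower in the neuron libraries, at 0.701 and 2.23 against 10.95 and 13.7 for Ntrk2 over Ntrk3, while Ntrk3 over Sort1 overlaps.

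Levels of different genes compare only per length, and here the length mattered. The deposited RPKM values (reads per kilobase of gene length, scaled to library size) imply one length per gene, recovered from the ratio of count to RPKM. That length was 80908 bases for Ntrk2, 9.25 times its longest GENCODE transcript of 8744 bases. It was 125140 bases for Ntrk3, 47904 for Bdnf and 41075 for Sort1, which are 6.35, 11.2 and 6.01 times the longest transcript. For Ngfr, with its single transcript, it was 3409 bases against 3446. The deposited RPKM of genes with several transcripts is therefore low relative to that of Ngfr. In proliferating replicate 2, for example, the deposited RPKM of Ngfr (0.339, from 12 counts) stood above that of Ntrk2 (0.287, from 241 counts). Per kilobase of the longest transcript the levels were 0.471 CPM for Ngfr and 3.73 CPM for Ntrk2. On that scale Ntrk2 and Sort1 were the 2 highest in every library. Ntrk2 was first in proliferating replicate 1 (8.36 against 6.66 CPM per kilobase for Sort1), and Sort1 was first in proliferating replicate 2 (5.41 against 3.73), neuron replicate 1 (4.23 against 0.471) and neuron replicate 2 (8.71 against 0.711). Ntrk3 reached 0.0939 to 0.450, Bdnf 0.138 to 0.308 and Ngfr 0.0244 to 0.471 CPM per kilobase. These ranges overlapped, so no order among the last 3 genes was set on this scale. Per kilobase of the mean transcript length, Ntrk3 reached 0.771 to 3.69 CPM, above Bdnf (0.149 to 0.334) and Ngfr (0.0244 to 0.471). The order of these genes thus depended on the length chosen.

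**Figure D4:**
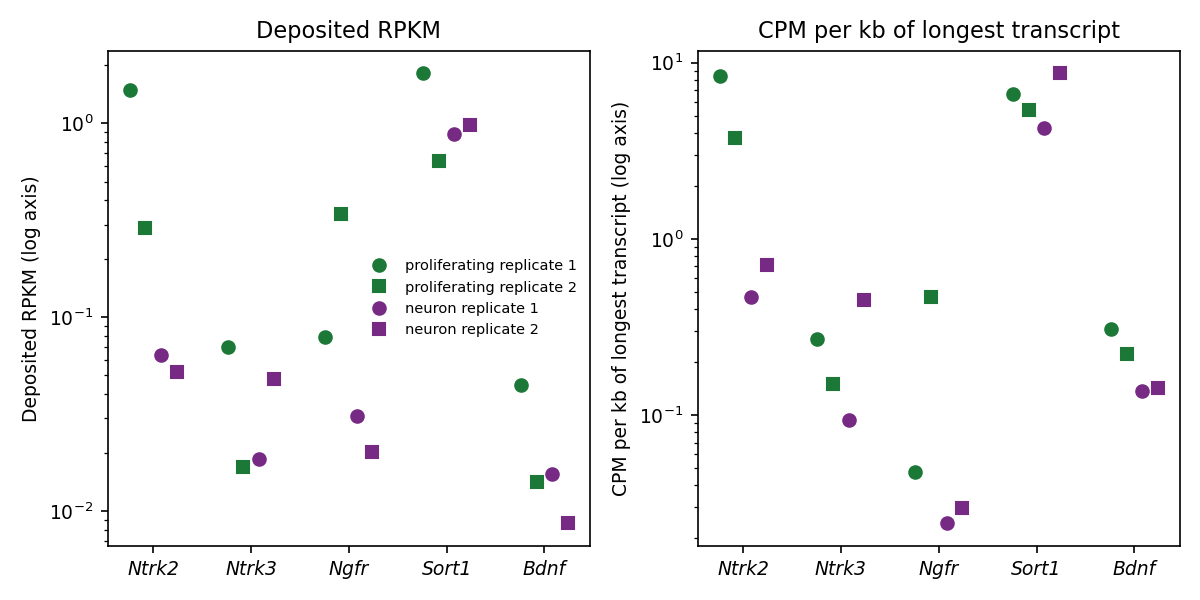
Levels per length of the 5 detected neurotrophin genes, as deposited RPKM (left) and as CPM per kilobase of the longest GENCODE transcript (right), both on log axes with 1 symbol per library. Ngfr lies above Ntrk2 in proliferating replicate 2 by deposited RPKM (0.339 against 0.287) and below it per longest transcript (0.471 against 3.73).

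The surrounding pathway was described by 7 lists with 104 genes, of which 103 had a row in the files and 73 passed the filter. The edgeR test called 0 of these 73 genes after adjustment over all genes. With an unadjusted p-value under 0.05, 1 was higher and 11 were lower in neurons, beside 0.915% and 2.51% of all tested genes. Of the 11 lower genes, 8 came from the list of genes known to be induced by neurotrophins. Among them Egr1, Egr2, Egr3, Fosb and Vgf passed the filter only through the proliferating libraries. Plcg2, the 1 higher gene, passed it only through the neuron libraries, so these counts are a description. The median log2 fold change over the 73 genes was -0.27, against 0.024 over all tested genes. The other ligand and receptor genes include relatives of sortilin and partners of p75. Of 11 such ligand and receptor genes 3 were tested, with 0 at an unadjusted p-value under 0.05. Sorl1, which encodes a relative of sortilin, had 103 and 1 counts in proliferating cells against 14 and 55 in neurons. Lingo1, a partner of p75, had 66 and 56 counts against 52 and 155. Tnfrsf19, a relative of the p75 gene, was even across libraries, at 7.48 and 5.14 CPM against 6.31 and 6.42 CPM. For these 3 genes the groups overlapped, and the other 8 did not pass the filter.

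Genes for the proteins that carry the Trk signal inward had fitted differences in both directions. Of 23 genes for Trk adaptors and effectors, 21 were tested, with a median log2 fold change of -0.093, 7 higher and 14 lower. The lowest was Shc4 at -1.44 (SE 0.93). Of the 21, 3 (Plcg2, Shc1 and Crk) were higher in both neuron libraries than in both proliferating libraries, beside 12.9% of all tested genes. Another 3 (Gab2, Irs2 and Cbl) were lower in this way, beside 14.5%. Only Plcg2, a phospholipase C gene, had an unadjusted p-value under 0.05. It had 2 counts in each proliferating library and 16 and 27 in the neuron libraries, a log2 fold change of 3.21 (SE 0.97, edgeR adjusted p-value 0.9998). It passed the filter on low counts only through the neuron libraries and so had to differ, and these values are a description. Its relative Plcg1, the phospholipase that docks on activated Trk receptors, had 288 and 289 counts in proliferating cells and 248 and 304 in neurons, with a log2 fold change of -0.27 (SE 0.49). Shc3, a neuronal adaptor, had 466 and 445 counts in proliferating cells, against 480 and 25 in neurons, so that neuron replicate 2 stood apart. All 11 p75 adaptor genes in the files were tested. They had a median of -0.040, 4 of them higher and 7 lower, and 0 had an unadjusted p-value under 0.05. Maged1, whose protein binds p75, had 591 and 854 counts in proliferating cells against 390 and 606 in neurons, and its groups overlapped in CPM. Of 15 genes for Trk transport and turnover 14 were tested, with a median of -0.26, 5 higher and 9 lower, and 0 at an unadjusted p-value under 0.05. In that list Nedd4, a ubiquitin ligase gene, had 4255 and 2305 counts against 3592 and 3814.

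Among the 10 tested genes that process neurotrophin precursors, 4 were lower in both neuron libraries than in both proliferating libraries (Plat, Pcsk6, Pcsk7 and Furin). In the other direction, 1 was higher in both (Aph1a). Over all tested genes, 14.5% were lower and 12.9% higher in this way. Plat encodes tissue plasminogen activator, which starts the plasmin cascade that can cut the BDNF precursor. Its counts were 378 and 241 in proliferating cells against 94 and 50 in neurons, or 31.8 ± 1.11 CPM against 6.50 ± 1.99 CPM (SD, n = 2 each). Its log2 fold change was -2.29 (SE 0.49), and its edgeR adjusted p-value 0.78 (0.16 with the replicate block). Pcsk6, a proprotein convertase gene, had 80 and 154 counts against 69 and 24, a log2 fold change of -1.72 (SE 0.72, edgeR adjusted p-value 0.9998). Furin, the gene of the main convertase of the secretory pathway, had 136 and 117 counts against 84 and 91. Its log2 fold change was -0.72 (SE 0.49). Of the 17 genes of this list 10 were tested, 5 higher and 5 lower with a median of -0.27, and 4 were at 0 in all libraries (Plg, Mmp3, Mmp7 and Mmp9).

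The tested genes known to be induced by neurotrophins had lower values in neurons. These genes, mostly immediate early genes, are also induced by FGF and by many other signals. Of 12 genes in the list 9 were tested, and all 9 had lower values in both neuron libraries than in both proliferating libraries, beside 14.5% of all tested genes. The unadjusted p-value was under 0.05 for 8 of them, all lower. The median log2 fold change was -3.15. Egr1, Egr2, Egr3, Fosb and Vgf, with at most 11 counts in either neuron library, passed the filter only through the proliferating libraries. They therefore had to differ, and the counts and median over the list are a description. Of the 3 genes that did not pass, Npas4 had 9 and 1 counts against 2 and 5, Arc had 3 counts in 1 proliferating library, and Npy was at 0. Egr1, a zinc finger transcription factor gene, had 407 and 215 counts in proliferating cells against 8 and 7 in neurons. The fitted log2 fold change of -5.47 (SE 0.57) had an edgeR adjusted p-value of 0.11, and it was called with the replicate block (0.011). Given how Egr1 passed the filter, this call is a description too. Fos had 124 and 39 counts against 20 and 7, with a log2 fold change of -2.67 (SE 0.67, edgeR adjusted p-value 0.84). Vgf, which encodes a secreted neuropeptide precursor, had 28 and 1223 counts in proliferating cells against 6 and 11 in neurons, so its group mean rested on proliferating replicate 2. The smallest difference among the 9 was that of the nuclear receptor gene Nr4a1, at 2.14 and 2.03 CPM against 0.757 and 1.73 CPM. Basic FGF is named for the proliferating medium and not for the neuron medium, and its part in these values cannot be told apart from the other differences between the groups.

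**Figure D5:**
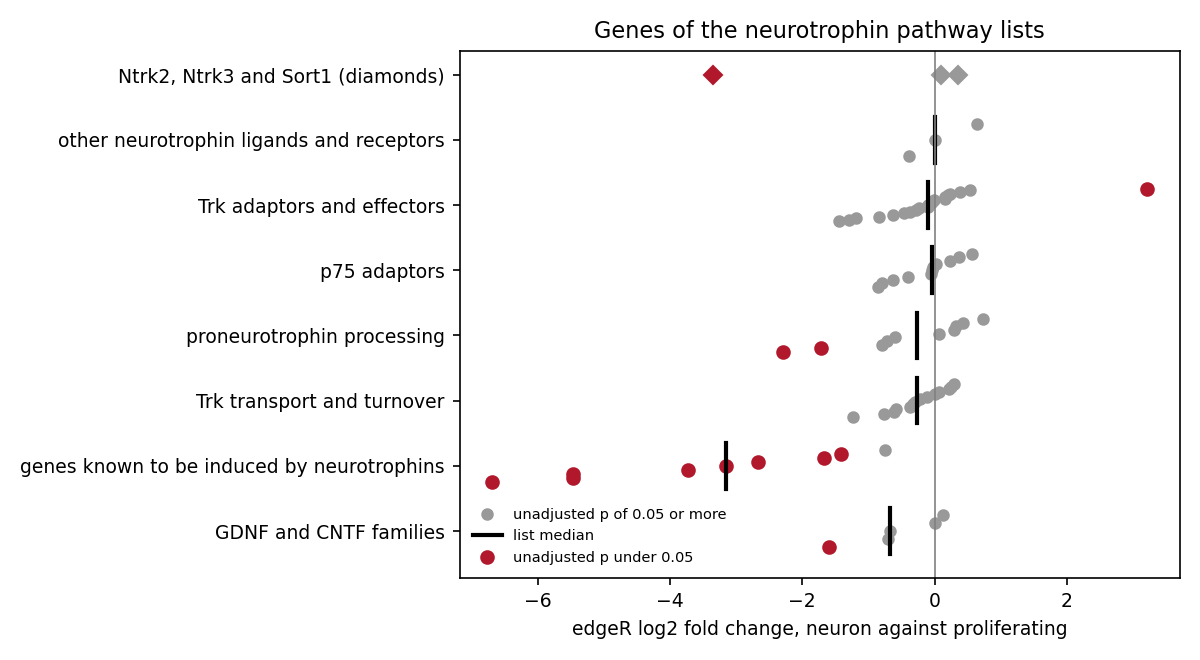
edgeR log2 fold change of each tested gene in the 7 pathway lists (points) and of Ntrk2, Ntrk3 and Sort1 (diamonds), neuron against proliferating, with list medians as bars. Red marks an unadjusted p-value under 0.05. The genes known to be induced by neurotrophins have a median of -3.15, and the other list medians lie between -0.67 and 0.0071. Egr1, Egr2, Egr3, Fosb and Vgf passed the filter only through the proliferating libraries, and Plcg2 only through the neuron libraries.

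Several markers of astrocytes and radial glia were, like Ntrk2, lower in the neuron libraries. Of 10 such markers 7 were tested, 6 with a lower and 1 with a higher fitted level in neurons, with a median log2 fold change of -1.92, and 4 of the 7 were lower in both neuron libraries than in both proliferating libraries, beside 14.5% of all tested genes. Gfap and Slc6a11 passed the filter only through the proliferating libraries, so these counts are a description. The summed level of all 10 markers was 211.5 and 219.0 CPM in proliferating cells against 101.6 and 77.2 CPM in neurons. Gfap, the astrocyte intermediate filament gene, had 181 and 89 counts in proliferating cells and 1 and 2 in neurons. Slc6a11, a GABA transporter gene, had 221 and 143 counts against 0 in both neuron libraries, at least 134.6-fold lower against the limit of 3 counts over the group. The edgeR adjusted p-value was 0.11 for both genes, and with the replicate block both were called (0.016 for Gfap and 0.011 for Slc6a11). Given how Gfap and Slc6a11 passed the filter, these calls are a description too. Aqp4, the water channel gene of astrocyte endfeet, had 356 and 2 counts in proliferating cells against 31 and 5 in neurons. Slc1a2, a glutamate transporter gene, had a higher fitted level in neurons, with 207 and 67 counts against 180 and 507. Gja1, a gap junction gene of astrocytes, was at 0 in all 4 libraries, and Aldh1l1 and S100b had 0 to 13 counts. The part of these cells or genes in the Ntrk2 values was not tested. Of 10 Schwann cell and oligodendrocyte markers 3 were tested. Their summed level was 12.7 and 75.1 CPM in proliferating cells and 7.57 and 11.2 CPM in neurons, where Olig2 made up most of the sum in proliferating replicate 2 (445 counts, and 5 to 48 in the others). Cnp was the largest part in the other 3 libraries (6.24, 4.88 and 7.34 CPM), with Sox10 at 0 to 2 counts and Foxd3 at 0. Summed levels were 14.9 to 43.8 CPM for 8 hair cell and supporting cell genes, of which Prox1 made up 12.2 to 32.4 CPM. For 8 fibroblast genes they were 7.95 to 17.9 CPM, of which Pdgfra made up 7.14 to 16.8 CPM. For 5 endothelial genes they were 0.102 to 1.22 CPM, and for 5 microglial genes 0 to 0.589 CPM. Of the hair cell and supporting cell genes 3 were tested, all with a higher fitted level in neurons (Atoh1, Prox1 and Tecta). Prox1 and Tecta were higher in both neuron libraries than in both proliferating libraries, beside 12.9% of all tested genes. Tecta passed the filter only through the neuron libraries.

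The genes with the most similar profiles were found by the Euclidean distance between log2 CPM values over the 4 libraries, each centred on its own mean. The nearest to Ntrk2 was Cryab, a small heat shock protein gene, at a distance of 0.32, with 44 and 13 counts in proliferating cells and 0 and 1 in neurons. It was followed by the protocadherin gene Pcdh10 (0.41), with 258 and 73 counts against 9 and 18, and by Vwa5a (0.53), with 55 and 21 counts against 1 and 4. Cryab and Vwa5a passed the filter on low counts only through the proliferating libraries and so had to differ. Their neuron counts near 0 were also raised by the prior count of 2 added in log2 CPM. All 3, being chosen for their similarity to Ntrk2, were like it highest in proliferating replicate 1. The nearest to Ntrk3 were Aldh5a1 (0.25), Ezh1 (0.28) and Psen2 (0.36), which were all highest in neuron replicate 2. Psen2 encodes a subunit of the gamma-secretase that cuts p75. The nearest to Sort1 were 1810037I17Rik (0.066), Abhd11 (0.082) and the progranulin gene Grn (0.091), whose protein is a known ligand of sortilin. Grn had 119 and 54 counts in proliferating cells and 68 and 122 in neurons. With 4 libraries, such nearness describes these libraries and has no test.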

How the data were processed

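Per the submitters' processing notes, HISAT2, SAMtools, featureCounts, DESeq2 and deepTools 3.4.3 were used with the build mm10. Their roles, the annotation and the strand setting are not given in the sources used here. Per the labels, 500 ng of DNase-treated RNA went into ribosomal depletion and a stranded kit. Each library has 2 tables that the authors deposited, one of raw counts and one of RPKM. The deposited RPKM is the count divided by a single length for each gene and by the total of the whole column, which holds the 18S row.

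Groups and replicate numbers come from the titles. Genes were tested with edgeR 4.0.16 (R 4.3.3) on all counts (TMM, filterByExpr with minimum count 10 and minimum total 15, quasi-likelihood test, group as the single term, Benjamini-Hochberg adjustment over 12783 genes, two-sided, called under 0.05), tested on simulated data. The simulated counts varied less between replicates than the libraries here, so they do not show how many changes the test can find. Log2 CPM used a prior count of 2. Ratio intervals are exact conditional binomial. The alternatives were those of the closing section, with DESeq2 1.42.0 and limma 3.58.1 among them. Both replicate 2 titles carry the words "set 2", so the numbers were taken to mark a shared set. Deviations of same-numbered libraries from their group means correlated across genes with r = 0.33. The 6 genes and all lists were chosen with earlier results of these data known. Named genes are the 6 genes, genes of the lists and, for each of the 6 that was tested, the 3 nearest profiles. Some genes of the lists are not reported here by name. Gene positions, transcripts and sequences are from GENCODE M21 (GRCm38, the assembly of mm10). Python 3.11.15 and scipy 1.17.1 were used for the other values.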

Additional observations from a re-analysis of the deposited data

How the results depend on the processing

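Ntrk2 was lower in neurons under all 13 alternatives, 1 of which (the filter on CPM) repeated the main fit. Its log2 fold change lay between -3.93 and -0.76, the latter on log2(RPKM + 1), which compresses low values. It was called with DESeq2 (-3.35), without a gene filter (-3.32) and in 2 of the 4 fits that each left out 1 library (-3.82 to -2.69 over the 4), but not with the replicate block (-3.27, adjusted p-value 0.12). Leaving out a library leaves 1 in a group, which is then assumed to vary like the other group. Ntrk3 reversed with library size alone (-0.37), log2(RPKM + 1) (-0.014) and log2(RPKM + 0.1) (-0.089), and ran from -1.17 to 1.04 without 1 library. Sort1 reversed in the same settings (-0.40, -0.15 and -0.21) and ran from -0.51 to 0.49. The replicate block left both near 0 (0.032 and 0.016). Library size alone shifted the median of all genes to -0.27.

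Counts of genes called higher and lower were 0 and 0 in the main test. They were 12 and 48 with DESeq2 (1240 adjusted p-values not given), 41 and 122 of 25859 genes without a filter, 0 and 2 with library size alone and log2(RPKM + 0.1), 0 and 1 with log2(RPKM + 1), 0 and 3 with the replicate block, and 1 to 37 and 9 to 90 without 1 library. Unadjusted counts of 117 higher and 321 lower became 345 and 445 with the block, 432 and 577 without a filter, 26 and 213 with library size alone, 26 and 214 or 30 and 206 on the RPKM scales, and 1557 and 959 without proliferating replicate 1. Pathway genes called lower were 0 in the main test, 2 with DESeq2, 6 without a filter, 1 on each RPKM scale, 1 with the block and 1 to 2 without 1 library. At an unadjusted p-value under 0.05, the 1 higher and 11 lower pathway genes became 0 and 7 with library size alone, and 0 to 4 and 8 to 19 without 1 library. The cause was not tested. With the longest transcript as the length, Ntrk2 moved from rank 2 to 1 and Sort1 from 1 to 2 in proliferating replicate 1, and Ntrk2 from 3 to 2 in proliferating replicate 2. With the mean transcript, Ntrk2 ranked 1 and Sort1 2 in both proliferating libraries, and Ntrk2 ranked 3 in neuron replicate 2. RLE factors and leaving out the 18S row changed no call or direction of these results. The filter on CPM kept the same number of genes and gave the same fits for Ntrk2, Ntrk3 and Sort1, so it is no separate check. The depth limits Ngfr, Bdnf and Ntf3 most.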

Other observations

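Receptors of other neurotrophic factor families were also measured. Of 14 genes of the GDNF and CNTF families 5 were tested, with a median log2 fold change of -0.67, 2 higher and 3 lower, and 1 had an unadjusted p-value under 0.05. That gene was Lifr, which encodes the receptor for leukemia inhibitory factor that CNTF also uses. Its counts were 269 and 72 in proliferating cells (replicates 1 and 2) against 75 and 42 in neurons, or 22.1 and 9.75 CPM against 6.31 and 4.28 CPM. The fitted log2 fold change was -1.59 (SE 0.58, edgeR adjusted p-value 0.9998). Il6st, the gene of the shared signalling subunit gp130, had 346 and 161 counts against 165 and 165. Its log2 fold change was -0.71 (SE 0.46, unadjusted edgeR p-value 0.16). Of the 5 tested genes, 2 were lower in both neuron libraries than in both proliferating libraries (Lifr and Il6st). In the other direction, 0 were higher in both. Over all tested genes, 14.5% were lower and 12.9% higher in this way. Cntfr, the gene of the CNTF binding subunit, had 40 and 29 counts against 46 and 33, and its groups overlapped. Ret, the GDNF family kinase gene, had 0 and 4 counts against 0 and 6, and Gdnf and Gfra3 were at 0 in all 4 libraries.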
